A study of Mus musculus with 9 samples.

Results

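Hippocampal RNA of aged SAMP10 mice fed an extract of green soybean was compared with that of mice fed an extract of yellow soybean. The comparison used the 3 arrays titled green soybean and the 3 titled yellow soybean, 6 of the 9 arrays of the series, and was chosen by these titles and not by any measured value. Of 34760 probe sets on the array, 28187 were not of the control type, and the 22267 of these that had a score on all 6 arrays were tested. The remaining 5920 held an exact 0, read as no value, on at least 1 of the 6 arrays, and 2871 of them on all 6. The tested probe sets covered 16623 genes with a single gene symbol.

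All mice were males of SAMP10/TaSlc, an inbred senescence-accelerated strain with early brain ageing. Both groups ate the CE-2 diet with 3.0% of their extract from 1 to 12 months of age, so age, strain, base diet and extract dose were shared and only the soybean differed. The 3 arrays of the control diet appear below only as reference values. Groups of 12 mice were kept 6 to a cage. The labels name no cage and do not say whether an array held RNA of a single mouse or of a pool, so p-values measure only the spread between these samples, which may be technical, and cage and extract cannot be told apart. The arrays are titled SMP30, whereas the mice are labelled SAMP10, and the second name is used here.

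Green soybean varieties keep chlorophyll in the ripe seed, which yellow varieties degrade, and both kinds supply isoflavones, plant phenols that bind oestrogen receptors. The composition of either extract is not given in the sources used here. The hippocampus forms memories through the granule cells of the dentate gyrus and the pyramidal cells of the cornu ammonis, whose firing switches on a set of activity-regulated genes within minutes. Chaperones of the heat shock system refold proteins that are damaged by stress, and the amyloid precursor protein is cut by secretases into amyloid beta, the peptide that the title of the series names.

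Expression is given in units of the authors' normalized score, a z-type value on a log scale, and each difference is green minus yellow. If the logarithm has base 10, which was inferred and is not stated, 0.1 unit is about 1.18-fold and 0.2 unit about 1.38-fold. For 1354 of the tested probe sets the authors had centred the scores on the control arrays, so their scores are not levels. Among the 20913 others, a probe set is called brighter when its mean score over the 6 arrays reached their median of 0.174. Markers of the labelled tissue were present: 10 of the 11 measured genes of dentate granule cells and 12 of the 14 of cornu ammonis pyramidal cells lay on brighter probe sets. The same held for 10 of the 11 measured markers of neocortex and 5 of the 8 of striatum, so this count does not set the hippocampus apart from neighbouring tissue. Prox1, a transcription factor of granule cells, scored 0.88, 1.05 and 0.76 with yellow and 0.982, 0.825 and 0.604 with green.

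Green soybean replicate 3 stood apart. Its mean correlation with the other 5 arrays was 0.958, against 0.975 to 0.977 for the others, and the SD of its difference from the others was 0.160, against 0.0912 to 0.105. The share of exact zeros was 14.5% to 16.1% on the yellow arrays and 12.6% to 14.4% on the green ones. Many of the results that rest on replicate 3 are given with and without it.

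No probe set separated the extracts past the threshold. By limma with Benjamini-Hochberg adjustment, 0 of 22267 probe sets (0%) had an adjusted p below 0.05, and the smallest adjusted p was 0.929. Before adjustment, p lay below 0.05 in 1164 probe sets, with 926 higher with green (4.16%) and 238 lower (1.07%). In 1707 probe sets (7.67%) the 3 green arrays all lay above the 3 yellow ones, and in 648 (2.91%) all lay below. The median 95% confidence interval of a difference reached 0.151 unit to either side, and the number of arrays limits this precision. Differences were small, with 103 probe sets beyond 0.3 unit and 6 beyond 0.5 unit in either direction.

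The excess of higher over lower differences lay outside the brighter probe sets and moved with the scaling of the arrays. Of the 10457 brighter probe sets, 73 were higher (0.698%) and 85 lower (0.813%) at an unadjusted p below 0.05, and their median difference was -0.00513. Of the 11810 others, which comprise 10456 dim and 1354 centred ones, 853 were higher (7.22%) and 153 lower (1.30%), with a median difference of 0.0411. Of the probe sets at an unadjusted p below 0.05, 79.6% of 1164 were higher on the deposited scores, 56.6% of 979 once the arrays were set to a common median and 47.7% of 928 once they were quantile normalized. Olfactory receptor genes, whose best known site of action is the nose, made up 23 of the 926 higher probe sets and 0 of the 238 lower ones. Across the measured olfactory receptors 164 of 219 were higher with a median of 0.0627, and across keratin and keratin-associated genes, which belong to skin and hair, 54 of 65 were higher with a median of 0.0705. The median over all genes was 0.0139, with 58.1% of genes higher, and without green replicate 3 it was 0.0233, with 65.4% higher. A shift of this kind in genes of other tissues is given here as a measured fact, and its part in the other higher values was not tested.

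**Figure D1:**
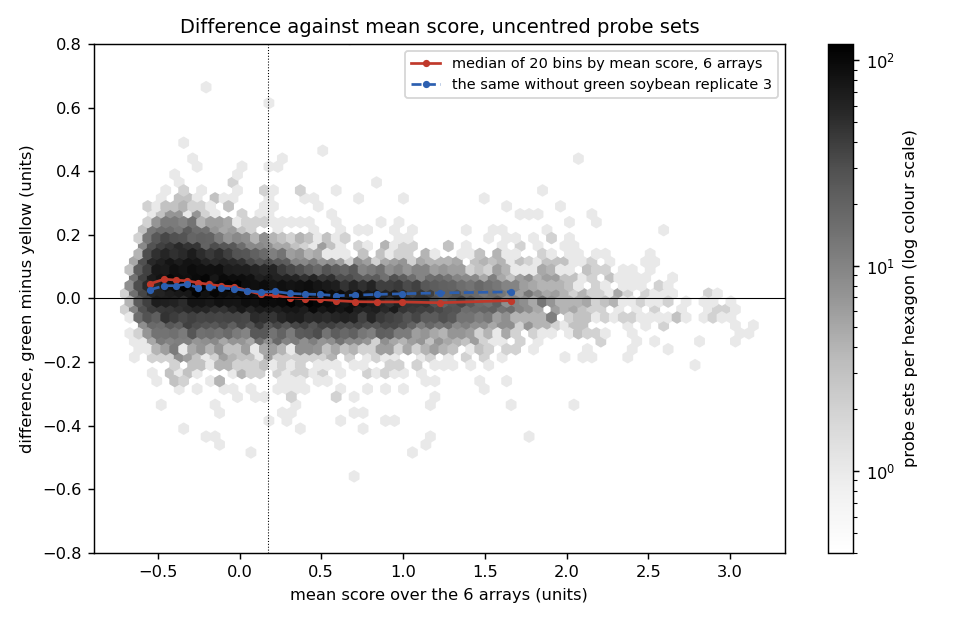
Difference between green and yellow arrays (vertical axis, score units) against the mean score over the 6 arrays (horizontal axis, score units) for uncentred probe sets, counted in hexagons, with the medians of 20 bins as lines and the median mean score of 0.174 as a dotted line. The bin medians with all 6 arrays ran from 0.0604 among dim probe sets to -0.0138 among bright ones, and without green soybean replicate 3 they ran from 0.0448 to 0.00839; 2 probe sets lie outside the axis.

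Among brighter probe sets with a gene symbol, the smallest p belonged to U2af1, the small subunit of the splicing factor that binds the 3' end of introns. It scored 0.562, 0.504 and 0.699 with yellow and 0.275, 0.199 and 0.0170 with green, and the groups did not overlap. The difference was -0.424 ± 0.0807 (SE, n = 3 arrays a group), with a limma adjusted p of 0.929, and control arrays scored 0.267 to 0.655. A second probe set of U2af1 scored 0.283, 0.306 and 0.290 with yellow and 0.307, 0.348 and 0.276 with green, a difference of 0.0171. The separation was thus seen on 1 of the 2 probe sets of the gene. Hnrnph2, an RNA-binding protein that also acts in splicing, scored 0.363, 0.448 and 0.653 with yellow and 0.0875, 0.310 and 0.0413 with green. Its green arrays all lay below its yellow ones, with a difference of -0.342, while its other probe set differed by -0.0281.

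The other brighter probe sets that were lower with green showed differences between -0.170 and -0.570, all with a limma adjusted p of 0.929. Usp1, a deubiquitinase of DNA repair, scored 0.462, 0.270 and 0.301 with yellow and 0.0253, 0.205 and 0.128 with green. Kctd4, a protein with a potassium channel tetramerisation domain, scored 1.05, 1.24 and 1.19 with yellow and 0.955, 1.00 and 0.665 with green. The difference of Kctd4 was -0.286, or -0.182 without green replicate 3. In Usp1 and Kctd4 the groups did not overlap, and the same held for Ppil6, a cyclophilin-like protein, at -0.170 and for Dip2c, a disco-interacting protein homologue, at -0.282. The other 4 probe sets of Dip2c differed by 0.0658, 0.0703, -0.0225 and 0.0283. Gstm3, a glutathione transferase, differed by -0.380 and Rpl32l, a sequence related to a ribosomal protein gene, by -0.570, and for both the ranges of the groups overlapped. The other probe set of Gstm3 differed by -0.0993, also with overlap.

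Among brighter probe sets that were higher with green, Tmem158, a membrane protein first described as induced by Ras signalling, came first. It scored 0.177, 0.121 and 0.157 with yellow and 0.413, 0.304 and 0.459 with green, without overlap, a difference of 0.240 ± 0.0611 (SE). Atp1b3, a beta subunit of the sodium pump, scored 1.50, 1.39 and 1.38 with yellow and 1.67, 1.52 and 1.70 with green. Its green arrays lay above its yellow ones on this probe set, by 0.207, and its other probe set differed by 0.0261. Atp5k, a subunit of the mitochondrial ATP synthase, scored 0.295, 0.205 and 0.410 with yellow and 0.565, 0.430 and 0.600 with green, a difference of 0.228. Sat2, a member of the polyamine acetyltransferase family, differed by 0.193, Snrpd1, a core protein of spliceosomal particles, by 0.212, Zfp46, a zinc finger protein, by 0.187, and Rps12, a protein of the small ribosomal subunit, by 0.174. In these 4 the groups did not overlap, but the other 5 probe sets of Rps12 overlapped, with differences of -0.00788, 0.173, 0.252, 0.0117 and -0.0164. Rps12, Rpl7a and similar genes have near-identical copies in the genome. Whether a probe set reads the named gene or a copy was not tested for any gene here, Hnrnph2, Gstm3 and Nfu1 included.

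Nfu1, which carries iron-sulfur clusters to mitochondrial enzymes, showed how far a single array could decide a value. Its named probe set scored 0.0548, 0.0170 and -0.0106 with yellow and 0.602, 0.736 and 0.0169 with green, while controls lay between -0.372 and -0.186. Green replicate 3 sat within the yellow range, and the difference was 0.431 with it and 0.649 without it, when the limma adjusted p was 0.0878. The other probe set of Nfu1 scored higher throughout, with means of 0.881 ± 0.0672 (SD) for yellow and 0.823 ± 0.0459 for green, and differed by -0.0579. Of the named genes, 11 had further probe sets, 19 in all.

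**Figure D2:**
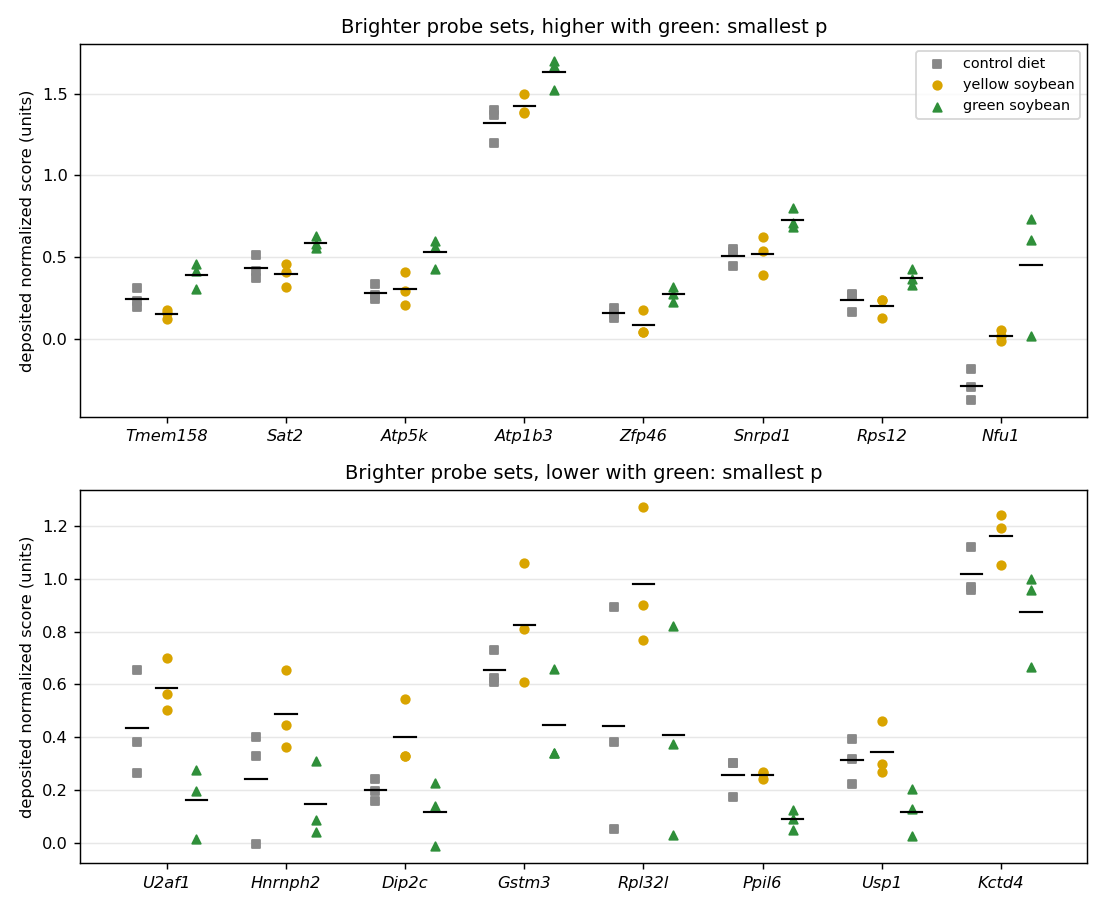
Scores (vertical axis, units) of the 8 brighter probe sets with the smallest p in each direction, for each control, yellow and green array (points) with group means (bars). U2af1, Ppil6, Usp1 and Tmem158 show green arrays apart from yellow ones, while Gstm3, Rpl32l and Nfu1 overlap.

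**Figure D3:**
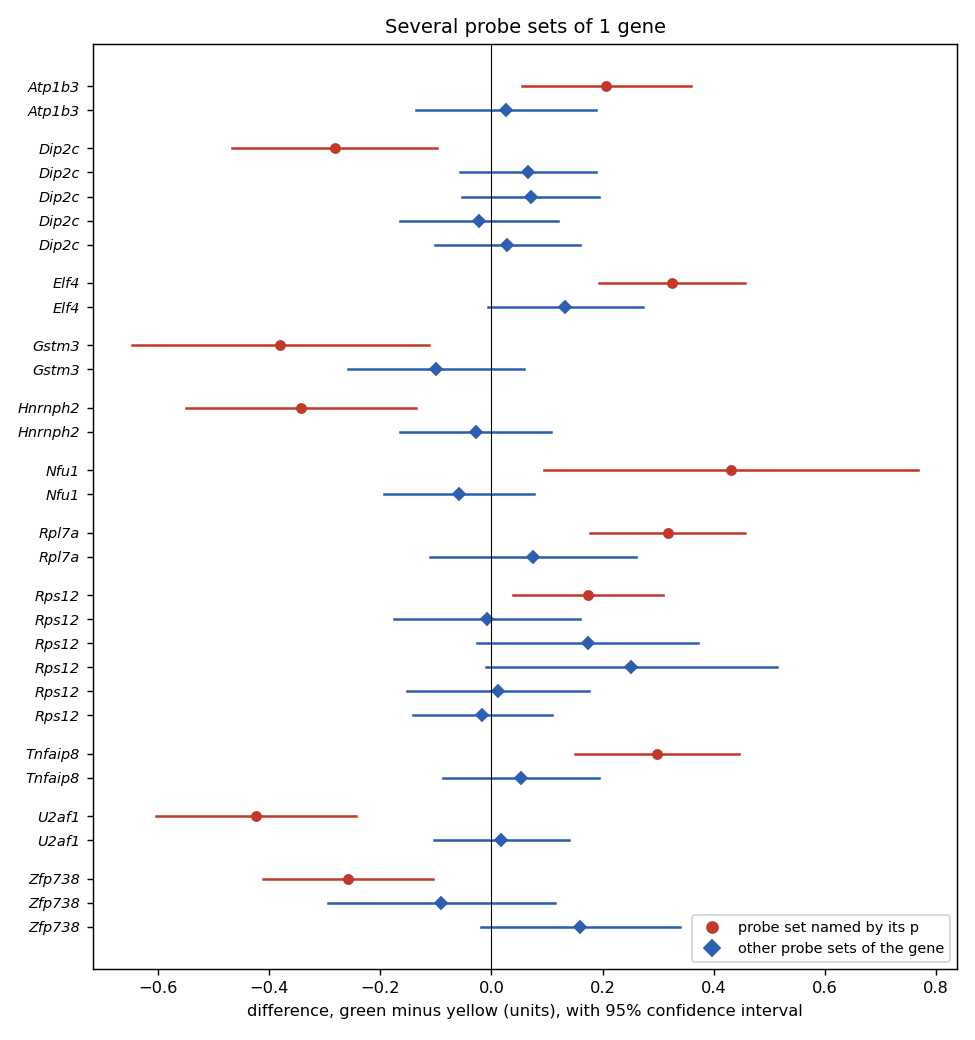
Difference, green minus yellow (horizontal axis, units), with its 95% confidence interval for every tested probe set of the 11 named genes that have several. The intervals of the named probe sets (circles) exclude 0 because they were picked by p, whereas the intervals of all 19 other probe sets (diamonds) include it.

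The remaining named genes with the smallest p lay on dim or centred probe sets. Higher with green by 0.267 to 0.357 were Elf4, an ETS transcription factor, Mhrt, a long noncoding RNA of the myosin heavy chain locus, Krtap5-2, a hair keratin-associated protein, Rpl7a, a ribosomal protein, Gldnos, Olfr1229, an olfactory receptor, Lrrn4, a leucine-rich repeat protein, Spata21, Tnfaip8, a regulator of cell death, and Tmem184a. In each of these 10 the 3 green arrays lay above the 3 yellow ones on the named probe set. The other probe sets of Rpl7a and Tnfaip8 differed by 0.0748 and 0.0527, with overlap, and that of Elf4 by 0.133, without overlap. Krtap5-2 scored -0.213, -0.331 and -0.0832 with yellow and 0.150, 0.147 and 0.145 with green, so a gene of hair was among those with separate groups. Lower with green were Senp8, the protease that removes NEDD8, by -0.196, and the zinc finger genes Zfp738 and Zfp354b, by -0.259 and -0.264. Without green replicate 3 these zinc finger genes differed by -0.198 and -0.190. The other 2 probe sets of Zfp738 differed by -0.0903 and 0.160. Gm14403, a predicted gene, differed by -0.315, and yellow replicate 3 at 0.107 lay nearest to its green arrays.

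Activity-regulated genes leaned lower with green. Of the 35 measured, 30 were lower and 5 higher, the median difference was -0.0884, and 0 passed the test. The lean depended on individual arrays. The mean score over the list was 0.285, 0.0870 and 0.202 on the yellow arrays and 0.155, 0.131 and -0.00702 on the green ones, so that yellow replicate 2 lay below green replicates 1 and 2. Control arrays averaged 0.0777, 0.279 and 0.269. Without green replicate 3 the median was -0.0374, with 24 lower, and without yellow replicate 1 it was -0.0618, with 25 lower. Rescaling the arrays by their medians gave a list median of -0.110, and quantile normalization gave -0.127.

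Nr4a3, an orphan nuclear receptor induced by neuronal firing, scored 0.108, 0.00491 and -0.0541 with yellow and -0.0769, -0.147 and -0.402 with green. It was the only member with all green arrays below the yellow ones (2.91% of all probe sets), and its difference was -0.228 ± 0.0874 (SE), or -0.131 without green replicate 3. Its relative Nr4a1 scored 0.0868, -0.417 and -0.222 with yellow and -0.399, -0.406 and -0.791 with green, so yellow replicate 2 lay among the green arrays. The differences were -0.348 for Nr4a1, -0.264 for Egr2, an early growth response transcription factor, -0.249 for Arc, a regulator of AMPA receptor uptake at synapses, and -0.188 for Rgs2, which shortens G protein signalling. Together with Nr4a3 these 4 were the members lower at an unadjusted p below 0.05 (1.07% of all probe sets), and without green replicate 3 the 5 differences lay between -0.112 and -0.218. Fos, the classical immediate early gene, differed by -0.0301, and Bdnf, the neurotrophin, by -0.0391. Klf4, a zinc finger transcription factor, was the only member with the 3 green arrays above the yellow ones (7.67% of all probe sets), although its closest arrays both scored -0.129, and its difference of 0.167 was 0.0802 without green replicate 3.

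**Figure D4:**
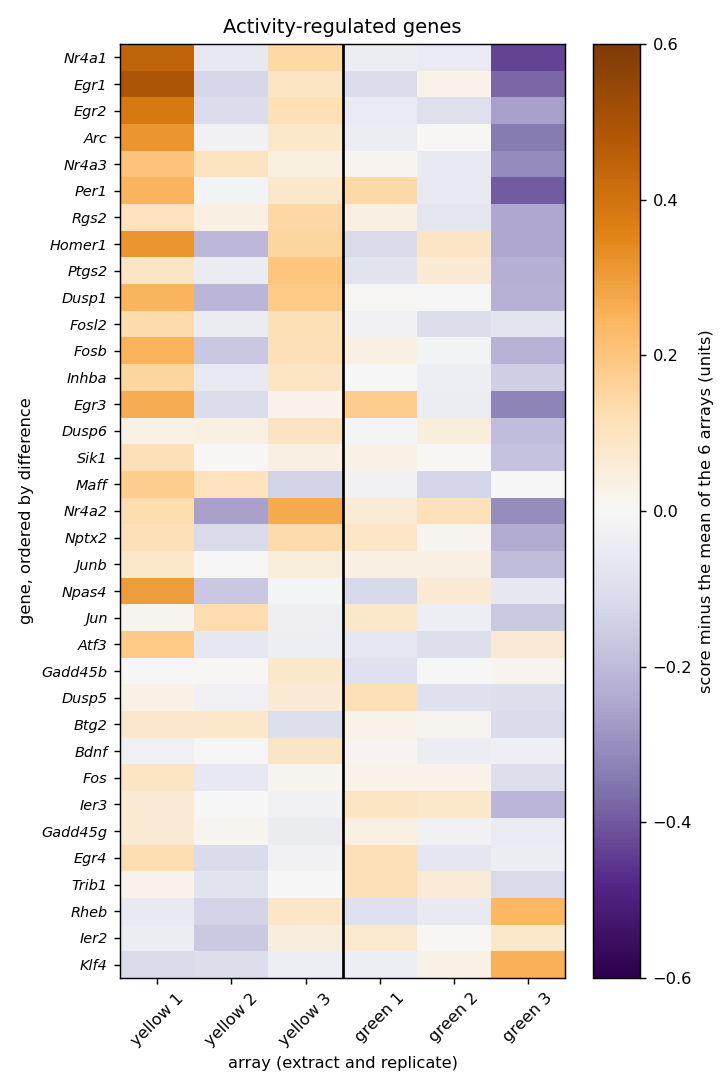
Score of each of the 35 measured activity-regulated genes on each array, as its difference from the mean of the 6 arrays (colour scale, units), with genes ordered by their difference. Yellow replicate 1 is high and green replicate 3 low for the genes at the top, whereas yellow replicate 2 lies below the gene mean for many of them.

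Many activity-regulated genes are switched on through cAMP response elements, where the factor CREB binds. The bases before the RefSeq transcription start (build GRCm38.p6) of the 3 members with the smallest p are shown, each on the strand of its gene, with the core TGACG or its reverse complement CGTCA in capitals.
Nr4a3, chr4:48045055-48045304, plus strand: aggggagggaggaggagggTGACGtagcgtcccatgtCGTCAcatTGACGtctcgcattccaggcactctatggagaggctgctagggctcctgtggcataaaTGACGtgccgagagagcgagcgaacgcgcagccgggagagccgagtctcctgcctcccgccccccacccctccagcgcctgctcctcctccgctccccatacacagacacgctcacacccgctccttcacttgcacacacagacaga
Nr4a1, chr15:101266596-101266845, plus strand: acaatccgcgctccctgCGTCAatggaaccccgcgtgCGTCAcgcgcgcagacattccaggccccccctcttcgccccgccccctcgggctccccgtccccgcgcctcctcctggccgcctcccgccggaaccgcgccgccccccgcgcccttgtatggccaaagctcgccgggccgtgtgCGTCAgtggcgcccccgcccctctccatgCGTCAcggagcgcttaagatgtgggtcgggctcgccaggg
Rgs2, chr1:144004150-144004399, minus strand: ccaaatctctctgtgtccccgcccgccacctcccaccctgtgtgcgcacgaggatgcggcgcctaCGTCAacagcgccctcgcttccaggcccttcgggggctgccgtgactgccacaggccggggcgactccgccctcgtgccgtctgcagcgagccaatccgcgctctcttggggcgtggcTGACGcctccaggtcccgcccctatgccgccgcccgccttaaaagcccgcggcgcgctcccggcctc
The core occurred 4 times before Nr4a3, 4 times before Nr4a1 and 2 times before Rgs2, on either strand. It was present before 20 of the 28 activity-regulated genes with a promoter entry (71.4%), against 26.9% of the 13059 genes tested here with an entry and 19.8% of all 27025 genes with an entry. A gene was counted when any of its entries held a match. The palindrome TGACGTCA, which holds the core on both strands, was present before 3 of the 28 and before 1.77% of all genes with an entry. Within the list the median difference was -0.0865 for genes with the core and -0.0924 for those without it. A match is a description of these letters and says nothing of binding.

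Of 24 measured heat shock genes 20 were lower, with a median of -0.0581 and 0 past the test, and 16 were lower without green replicate 3. The mean score over the list was 0.924, 0.838 and 0.956 on the yellow arrays and 0.861, 0.886 and 0.775 on the green ones, so yellow replicate 2 lay below green replicates 1 and 2 here too. Leaving out 1 array at a time gave medians from -0.0863 to -0.0375, the last without green replicate 3, and the median was -0.0795 and -0.0496 under the 2 rescalings of the arrays. Chordc1, a co-chaperone of HSP90, scored 0.0502, -0.0326 and 0.0254 with yellow and -0.222, -0.072 and -0.268 with green. The groups did not overlap, with a difference of -0.202 ± 0.0666 (SE). Fkbp4, an immunophilin that helps HSP90 to load steroid receptors, scored 0.0899, 0.0773 and 0.120 with yellow and 0.0375, -0.0398 and -0.0824 with green, again without overlap. Hspb1, a small heat shock protein, differed by -0.209, with overlap, and Dnajb1, a co-chaperone of HSP70, by -0.154. Hspa8, the constitutive HSP70, differed by -0.128 and Hsp90aa1, the inducible HSP90, by 0.0616, both within a 95% confidence interval that included 0. The paired motif GAANNTTC or TTCNNGAA of heat shock elements was found before 9 of the 20 members with a promoter entry and before 14.5% of all genes with an entry.

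Genes of endoplasmic reticulum stress had a median of -0.0480, with 21 of 28 lower, but the median was -0.00296 without green replicate 3. Hspa5, the main chaperone of that compartment, scored 0.162, 0.0607 and 0.235 with yellow and 0.162, 0.0712 and -0.147 with green. Its difference was -0.124 with green replicate 3 and -0.0360 without it. Pdia4, a protein disulfide isomerase, was lower on all green arrays by -0.107, and Herpud1, which takes part in the disposal of misfolded proteins, differed by 0.106.

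Lists of synaptic genes took the other sign without the same array. The median over 35 genes of glutamate receptors and the postsynaptic density was -0.0350 with all arrays and 0.00123 without green replicate 3. Over 26 genes of presynaptic vesicle release it was -0.0148 and 0.0186. Each of these lay below the median over all genes, which was 0.0139 with all arrays and 0.0233 without green replicate 3. Sv2c, a synaptic vesicle glycoprotein, scored 0.109, 0.198 and 0.145 with yellow and 0.0104, -0.00381 and -0.106 with green. Its green arrays lay below its yellow ones by -0.184, and by -0.147 without replicate 3. Camk2a, the kinase of synaptic potentiation, scored 0.0876, -0.0674 and 0.0116 with yellow and -0.211, -0.0421 and -0.375 with green, and the groups overlapped. In bulk tissue, fewer cells of a type and less RNA per cell cannot be told apart. Markers of dentate granule cells were lower in 7 of 11 (median -0.0684, or -0.00726 without green replicate 3), and those of cornu ammonis pyramidal cells in 10 of 14 (-0.0149, or 0.0788 without it). The part of these shifts in the lower activity-regulated and synaptic values was not tested.

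Of 24 genes of amyloid precursor processing 12 were higher and 12 lower, with a median of 0.00224 and 0 past the test. Without green replicate 3 there were 17 higher and 7 lower, with a median of 0.0363, beside 0.0233 over all genes. App, the precursor itself, scored 0.0268, -0.106 and -0.0227 with yellow and -0.0677, 0.0338 and -0.0532 with green. The groups overlapped, and the difference of 0.00504 had a 95% confidence interval from -0.132 to 0.142. Bace1, the beta secretase, differed by 0.0409 (95% confidence interval -0.0983 to 0.180). Aplp1, a paralogue of App, spread widely, at 0.574, 0.457 and -0.653 with yellow and -0.653, -0.788 and -1.01 with green. These scores were centred on the controls and are not levels. Yellow replicate 3 was level with the highest green array, and controls scored 0.244, -0.713 and 0.469, so high and low arrays occurred within the yellow and the control group. The difference was -0.943 ± 0.263 (SE), and without yellow replicate 3 it was -1.33 with a limma adjusted p of 0.0167.

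Among 27 genes that bind, clear or degrade amyloid beta, 15 were higher and 12 lower, with a median of 0.0196 that became -0.00178 with array medians aligned and -0.0168 without green replicate 1. Ptgds, a prostaglandin D2 synthase found in the meninges and choroid plexus, though not only there, scored -0.110, -0.0490 and 0.679 with yellow and 0.657, 0.401 and 0.650 with green. Yellow replicate 3 was the highest of all 6, and the difference of 0.396 had a 95% confidence interval from -0.00253 to 0.794 and was 0.649 without that array and 0.254 without yellow replicate 1. Apoe, the main lipid carrier of the brain, differed by 0.0230, Ide, the insulin-degrading enzyme, by -0.0568, and Mmp9, a matrix metalloproteinase, by -0.241, or -0.102 without green replicate 3. Markers of the choroid plexus and of the leptomeninges leaned higher. Choroid plexus genes were higher in 12 of 14 (median 0.0920) and leptomeningeal genes in 15 of 19 (median 0.0676). Only 3 of the 14 and 4 of the 19 lay on brighter probe sets. Of all tested probe sets outside the brighter ones, 68.6% were higher, with a median of 0.0411. Leaving out 1 array at a time gave medians from 0.00419, without green replicate 1, to 0.149 for the choroid plexus and from 0.0411 to 0.0930 for the leptomeninges. Ttr, the defining choroid plexus gene, scored 2.07, 1.55 and 1.02 with yellow and 2.46, 1.08 and 1.41 with green, so it varied within each group by more than it differed between them. Mgp, a matrix protein of the leptomeninges, scored -0.00479, -0.0641 and 0.0105 with yellow and 0.348, 0.0251 and 0.167 with green. The part of these neighbouring tissues in the value of Ptgds was not tested.

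Of 35 antioxidant and glutathione genes 22 were higher, beside 58.1% of all genes, with a median of 0.0306 that was 0.0224 to 0.0427 with 1 array left out and 0.00919 with array medians aligned. Of these, 3 were higher at an unadjusted p below 0.05 (4.16% of all probe sets). Nudt1, which removes oxidised nucleotides from the DNA precursor pool, scored -0.537, -0.490 and -0.577 with yellow and -0.336, -0.320 and -0.281 with green. The groups did not overlap, the difference was 0.222 ± 0.0559 (SE), and it was 0.206 without green replicate 3, but the probe set is dim. Nqo1, a quinone reductase under the stress factor NRF2, was likewise dim and higher on all green arrays, by 0.131. Txn1, the cytosolic thioredoxin, scored 1.92, 1.39 and 2.26 with yellow and 2.17, 2.40 and 2.34 with green. Its difference was 0.445, and 0.214 without yellow replicate 2, while yellow replicate 3 lay within the green range. Gstm1, a glutathione transferase, differed by 0.110, Sod1, the cytosolic superoxide dismutase, by 0.0750, and Cat, the catalase, by -0.0257.

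Lists of mitochondrial respiration and protein turnover had medians of the same sign. Genes of oxidative phosphorylation were higher in 32 of 47 (median 0.0318) and proteasome subunits in 28 of 36 (median 0.0352), with 0 past the test in either list. With 1 array left out the medians ranged from 0.00140, without yellow replicate 2, to 0.0682 for oxidative phosphorylation, and from 0.00965, without green replicate 2, to 0.0541 for the proteasome. With array medians aligned they were 0.0103 and 0.0138. Psmc1, an ATPase of the proteasome cap, scored 0.648, 0.679 and 0.699 with yellow and 0.735, 0.782 and 0.813 with green. Cox5b, a subunit of cytochrome c oxidase, scored 2.05, 1.83 and 2.22 with yellow and 2.21, 2.30 and 2.32 with green, with overlap at the lowest green array. Ndufa1, a subunit of complex I, differed by 0.173, or 0.104 without green replicate 3. Cytosolic ribosomal protein genes were divided, with 26 of 53 higher, Rpl4 lower on all green arrays by -0.183, and Rps6 lower by -0.197 with overlap. Across this list 2 members had all green arrays above the yellow ones and 1 had them below (7.67% and 2.91% of all probe sets).

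Lists of lipid and iron genes held no direction that every setting kept. Acaa1b, a peroxisomal thiolase, scored -0.204, -0.284 and -0.188 with yellow and -0.515, -0.419 and -0.478 with green, while controls lay between -0.698 and -0.403. The yellow arrays stood above all other arrays, and the difference was -0.245 ± 0.0587 (SE) on a dim probe set. Acot1, a cytosolic acyl-CoA thioesterase, differed by 0.245, or 0.138 without green replicate 3, and Cpt2, which loads fatty acids into mitochondria, by 0.146. Over the 30 genes of lipid oxidation 19 were higher, and the median of 0.0154 became -0.00601 with array medians aligned. Of 30 genes of sterol and fatty acid synthesis 19 were lower, with a median of -0.0322 that was 0.0202 without green replicate 3. Of 19 iron and iron-sulfur genes 13 were lower, with a median of -0.0257, and 13 were higher without green replicate 3, with a median of 0.0331. Without that array the median over all genes was 0.0233. Ftl1, the ferritin light chain, scored 0.105, 0.218 and 0.0891 with yellow and 0.0289, -0.347 and -0.0191 with green, without overlap, and its difference was -0.250, or -0.132 without green replicate 2. Trf, the transferrin gene that oligodendrocytes express, differed by -0.155, or 0.0279 without green replicate 3.

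Genes that respond to hormones or handle plant compounds lay partly on dim probe sets. Of 18 oestrogen receptors and targets 13 were higher, with a median of 0.0234 that was -0.00199 without yellow replicate 2. Esr1, the oestrogen receptor alpha, scored -0.254, -0.260 and -0.331 with yellow and -0.0586, -0.157 and -0.164 with green, without overlap, and Oxtr, the oxytocin receptor, differed by 0.157. The probe set of Esr1 was not among the brighter ones. Of the 18 members 4 had all green arrays above the yellow ones (7.67% of all probe sets). Esr2, the oestrogen receptor beta, differed by 0.123 with a 95% confidence interval from -0.0499 to 0.295. Over the 7 brighter members of the list the median was -0.000318. Genes of xenobiotic metabolism and transport were higher in 16 of 21 (median 0.0334), genes of retinoid and carotenoid handling in 13 of 23, and glucocorticoid response genes in 14 of 21 (median 0.0292, and 0.0121 to 0.0593 with 1 array left out). Bco1, which cleaves carotenoids into retinal, scored -0.521, -0.594 and -0.677 with yellow and -0.462, -0.516 and -0.398 with green. Tsc22d3, a glucocorticoid-induced leucine zipper protein on a brighter probe set, scored 0.227, 0.193 and 0.272 with yellow and 0.348, 0.290 and 0.393 with green, and the groups did not overlap. Nr3c1, the glucocorticoid receptor, was lower on all green arrays, by -0.0724. Of 23 interferon response genes 16 were higher, but the median of 0.0258 became -0.0113 after quantile normalization, and 1 of the 5 brighter members was higher.

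**Figure D5:**
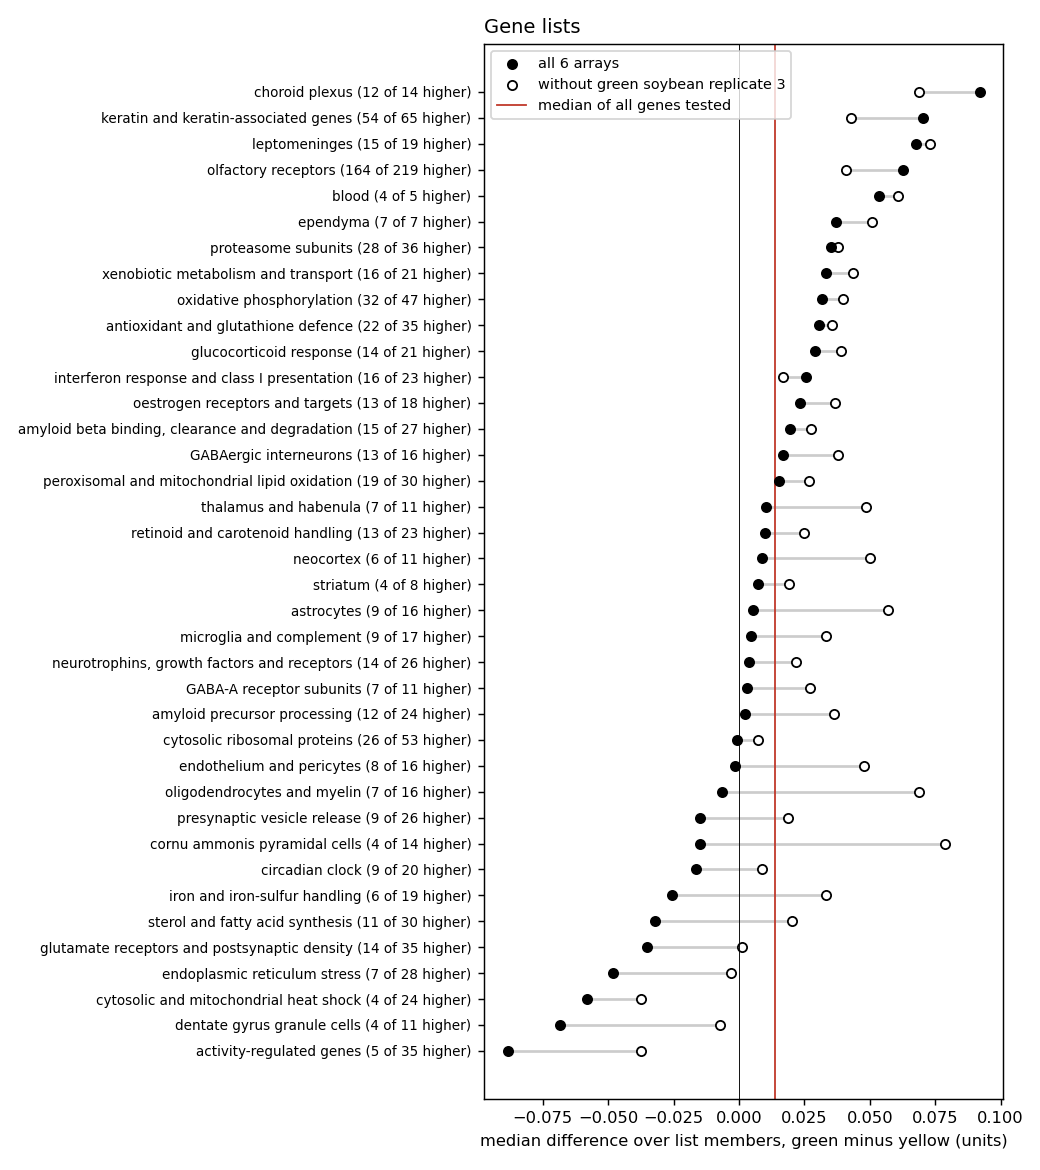
Median difference, green minus yellow (horizontal axis, units), over the measured members of each gene list, with all 6 arrays (filled) and without green soybean replicate 3 (open). The line at 0.0139 is the median of all genes with all 6 arrays. Without replicate 3 that median was 0.0233, which is not drawn. Genes of activity regulation, heat shock, endoplasmic reticulum stress and dentate granule cells stay below 0 in both. Several lists change side, among them those of synaptic genes, sterol and fatty acid synthesis and iron handling. With all 6 arrays the lists of choroid plexus, keratins, leptomeninges and olfactory receptors lie highest, whereas without replicate 3 that of cornu ammonis pyramidal cells does.

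Mir381 was among the lower named genes, and it belongs to the imprinted Dlk1 to Dio3 cluster of mouse chromosome 12, whose microRNAs are expressed from the maternal chromosome and are abundant in neurons. The mature sequences of Mir381 and of Mir377, its neighbour with the next smallest p, are shown from RefSeq (build GRCm38.p6) because on both probe sets the green arrays lay below the yellow ones, with the seed (bases 2 to 8) in capitals.
mmu-miR-381-3p: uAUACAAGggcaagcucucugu
mmu-miR-381-5p: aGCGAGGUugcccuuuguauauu
mmu-miR-377-3p: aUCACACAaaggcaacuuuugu
mmu-miR-377-5p: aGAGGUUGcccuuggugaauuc
The 4 seeds differ, so the mature microRNAs fall into separate seed families. Mir381 scored 0.201, 0.118 and 0.111 with yellow and -0.0741, -0.0956 and -0.355 with green, a difference of -0.318 ± 0.0801 (SE). Mir377 scored 0.141, 0.0424 and 0.186 with yellow and -0.0614, -0.0378 and -0.296 with green, a difference of -0.255. The scores of Mir381 and Mir377 were centred on the controls and are not levels. Without green replicate 3 the differences were -0.228 and -0.173. The cluster was singled out after its values had been seen. Of its 35 tested probe sets 24 were lower and 11 higher, with a median of -0.0462, or -0.0285 with 22 lower without green replicate 3. Among them 7 were lower and 0 higher at an unadjusted p below 0.05 (1.07% and 4.16% of all probe sets), and 6 had all green arrays below the yellow ones (2.91% of all probe sets). For Mir341 all green arrays lay above the yellow ones (7.67% of all probe sets). The 151 probe sets of other microRNAs had a median of 0.0306, with 59 lower. Of these, 5 were lower and 5 higher at an unadjusted p below 0.05, and 6 had all green arrays below the yellow ones. The files do not say whether such a probe set reads the mature microRNA, its precursor or the host transcript.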

How the data were processed

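Per the labels' protocols, hippocampal RNA was isolated with RNeasy columns and labelled as biotinylated cRNA for 1-colour Affymetrix arrays. The values the authors deposited are normalized scores from the SuperNORM data service, per the labels, with 1 score for each probe set on each array. The deposited p-value of each probe set comes from a test that is not given in the sources used here, and 9 further value columns of unlabelled samples were left out. Scores centred on controls were those with a deposited p-value up to 0.00497. The deposited array parameters, classed as other, served only for the scale (median 0.705, range 0.655 to 0.720).

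Groups followed the sample titles. The test was limma's (version 3.58.1, under R 4.3.3), 2-sided and without an intensity trend, on the 6 arrays alone, with Benjamini-Hochberg adjustment over all 22267 probe sets and calls at an adjusted p below 0.05. The code was tested on simulated data. Of the probe sets tested, 18030 carried 1 gene symbol in the platform annotation, 858 several and 3379 none. For genes with several probe sets, lists used the one with the highest mean score. Named genes were the 10 with the smallest p in each direction, the 8 brighter ones in each direction and the members with the smallest p of each list, with further members named for their role, and 1 gene that the rule picks is not reported here. The members and lists were chosen with earlier results of these data known. Alternatives covered array scaling, variance priors, array weights, the handling of zeros, brighter probe sets, all 9 arrays, a replicate block and each array left out.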

Additional observations from a re-analysis of the deposited data

How the results depend on the processing

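In the reported fit limma called 0 probe sets, with 1164 at an unadjusted p below 0.05, and calls were made under 2 of the alternatives. With an exact 0 taken as a value 46 were called, and all 46 held a 0 on at least 1 of the 6 arrays. Leaving out 1 array at a time gave 0 to 1 calls, the call being Aplp1 without yellow replicate 3, and 891 to 1567 probe sets at an unadjusted p below 0.05. That count was 188 with the brighter probe sets tested alone, which are fewer, and 928 to 1559 under the others. Of 1708 values of single genes under the alternatives 1 changed sign, that of Trf without green replicate 3. The difference of Trf ran from -0.246 to 0.0279 as single arrays were left out. The genes counted were picked by their small p, overall or within a list, which favours a stable sign. Only array scaling, array weights and leaving out an array can alter the difference of a gene, so the other values could not change sign. Of 644 medians of lists 18 moved beyond the spread between arrays. The replicate numbers did not pair the arrays, with correlations of -0.00851, -0.0645 and -0.0267 between deviations of the same number, and the replicate block gave 0 calls and 1141 probe sets at an unadjusted p below 0.05. With 3 arrays a group, a difference under about 0.151 unit lay within a typical 95% confidence interval, and the number of arrays limits what can be detected.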

Other observations

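Some probe sets had a score with 1 extract and none with the other. In 58 probe sets all yellow arrays held an exact 0 and all green arrays a score, and in 4 the reverse was found. Counted together with these, 1117 probe sets held 1 or more zeros on yellow arrays alone and 420 on green arrays alone. A single 0 was found in 819 and 360 of them. The scores of those named here were low. Hmgb3, a chromatin protein of the HMG box family, scored -0.262, -0.593 and -0.438 with green and was listed at 0 on the yellow arrays and on 2 control arrays. Ifna13, a type I interferon gene, scored -0.530, -0.306 and -0.510 with green, and Cyp2j13, a cytochrome P450 gene, -0.636, -0.456 and -0.346. Both had scores on the 3 control arrays. Of the 4 that were listed at 0 with green, Mir434 scored -0.669, -0.481 and -0.608 with yellow, and Nr1h4, the bile acid receptor, -0.593, -0.581 and -0.668. Mir434 lies in the same imprinted cluster as Mir381.

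Further gene groups had medians that moved with single arrays. Circadian clock genes were higher in 9 of 20, with a median of -0.0164 that ran from -0.0479 without green replicate 1 to 0.00865 without green replicate 3. GABA-A receptor subunits were higher in 7 of 11, with a median of 0.00323 that ran from -0.0287 without yellow replicate 2 to 0.0270 without green replicate 3. Neurotrophins, growth factors and their receptors were higher in 14 of 26, with a median of 0.00379 that ran from -0.0292 without green replicate 1 to 0.0219 without green replicate 3. Markers of GABAergic interneurons were higher in 13 of 16, with a median of 0.0168 that was -0.00464 with array medians aligned and ranged from -0.0199 to 0.0835 with 1 array left out. Ependymal genes, none of them on a brighter probe set, were higher in 7 of 7, with a median of 0.0369 that was 0.00764 without green replicate 1, 0.0773 without yellow replicate 2 and 0.00997 after quantile normalization. Markers of oligodendrocytes and myelin had a median of -0.00632 with all arrays and 0.0688 without green replicate 3, and those of astrocytes 0.00527 and 0.0571. Of the 16 measured oligodendrocyte and myelin markers 7 were higher and 9 lower. Olig2, a transcription factor of the lineage, scored 0.0889, 0.141 and 0.0357 with yellow and 0.286, 0.196 and 0.164 with green. It was the only 1 of the 16 with all green arrays above the yellow ones (7.67% of all probe sets).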
